A study of Homo sapiens with 6 samples.

Results

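The genes of the SR proteins, the hnRNP proteins and a set of related splicing regulators were followed in PANC-1 cells, a human line established from a pancreatic ductal carcinoma, after knockdown of RRM2. Members were taken by gene symbol from the deposited count table: protein-coding SRSF genes with a number, HNRNP genes other than the HNRNPA1-like names, and TRA2A, TRA2B, PTBP1, PTBP2, PTBP3, ESRP1, ESRP2, RBFOX2, MBNL1, MBNL2 and QKI. This gave 46 genes of the 42902 Gene IDs in the table, of which 14 were SR proteins with the TRA2 pair, 23 were HNRNP genes and 9 were the remaining regulators. The study compared 3 libraries from a PANC-1 line that carried a control hairpin with no target (shNC, genotype WT) with 3 libraries from a PANC-1 line whose hairpin targets RRM2 (shRRM2), to find genes downstream of RRM2, the small subunit of ribonucleotide reductase. The sources used here do not give the number of hairpins, the time after knockdown, whether each line was a clone or a pool, or whether replicates were cultured apart. The p-values therefore rest on differences among 3 libraries of a group that could be technical replicates.

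SR proteins bind exonic enhancer sequences through RNA recognition motifs and recruit the spliceosome through a domain rich in arginine and serine. The hnRNP proteins coat nascent transcripts, and many of them favour exon skipping or block splice sites, so that the balance between both families sets the outcome of alternative splicing. Many of these genes adjust their own output by including a poison exon, or dropping a coding exon, in a way that sends the transcript to nonsense-mediated decay. The transcription factor MYC is known to raise the transcription of several of them, among them PTBP1, HNRNPA1, HNRNPA2B1 and SRSF1. The values here are read counts per gene, so they show how much transcript a gene had and not which isoform.

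Total counts ran from 16606947 to 23300433 per library, and 40 of the 46 members were abundant enough to be tested. Levels are given as CPM, the usual count share scaled to library size, with library sizes adjusted by TMM. RRM2 stood at 39.6 to 204 CPM over the 6 libraries and was lower in shRRM2 (log2 fold change −2.31, SE 0.0443, edgeR quasi-likelihood adjusted p = 3.72e-29), in the direction of the labels. KRT7, KRT8 and KRT18, keratins of simple epithelium, were at 665 to 721, 1065 to 1672 and 770.3 to 1098 CPM, while the ductal keratin KRT19 had 0 to 6 counts and EPCAM 3 to 16. CDH1 and SOX9, also ductal or epithelial markers, were at only 0.668 to 2.71 and 3.77 to 12.3 CPM. The mesenchymal markers VIM, ZEB1 and CDH2 were at 548 to 613, 43.0 to 49.3 and 47.6 to 62.7 CPM, so markers of both kinds were present. KRT8, KRT18, EPCAM, CDH1 and SOX9 were higher in shRRM2 (log2 fold change 0.60, 0.45, 1.47, 1.43 and 1.31). KRT7 was lower (−0.07), VIM and CDH2 were higher (0.12 and 0.28), ZEB1 did not pass and KRT19 was not tested. These calls use an edgeR adjusted p under 0.05. CDKN2A, which is generally described as deleted in PANC-1, stood at 268 to 294 CPM in all 6 libraries, which does not match that description. The 7 fibroblast, endothelial and immune markers together summed to 2 to 16 counts per library (0.114 to 0.304 CPM in shNC and 0.453 to 0.884 CPM in shRRM2), with KDR and CD3E at 0. The 5 acinar and endocrine markers together summed to 0 to 2 counts.

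None of the tested members was called higher in the knockdown and most were called lower. Of 40 tested, 31 were lower at an adjusted p under 0.05 and 0 were higher, where 52.1% of all 15866 tested genes passed, 26.1% lower and 26.0% higher. Without a threshold, 36 of the 40 had a log2 fold change below 0. Where later paragraphs count genes that fell or rose, the adjusted p threshold applies. With edgeR, 0 members were higher also at an unadjusted p under 0.05, and DESeq2 and limma-voom gave 0 as well. When libraries were scaled by their size alone, 30 members were lower and 2 higher, HNRNPUL1 and RBFOX2. The median log2 fold change was −0.34, against −0.00857 over all tested genes, and members ranged from −1.15 for PTBP2 to 0.08 for HNRNPUL2. Together the 46 genes took 1.30%, 1.29% and 1.31% of all counts in shNC and 1.05%, 1.07% and 1.05% in shRRM2. The libraries of the groups did not overlap for 34 members, 33 with the knockdown below and 1, RBFOX2, with it above, against 57.8% of all tested genes in either direction. In a population of cells, less RNA per cell and fewer cells that express a gene cannot be told apart.

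**Figure D1:**
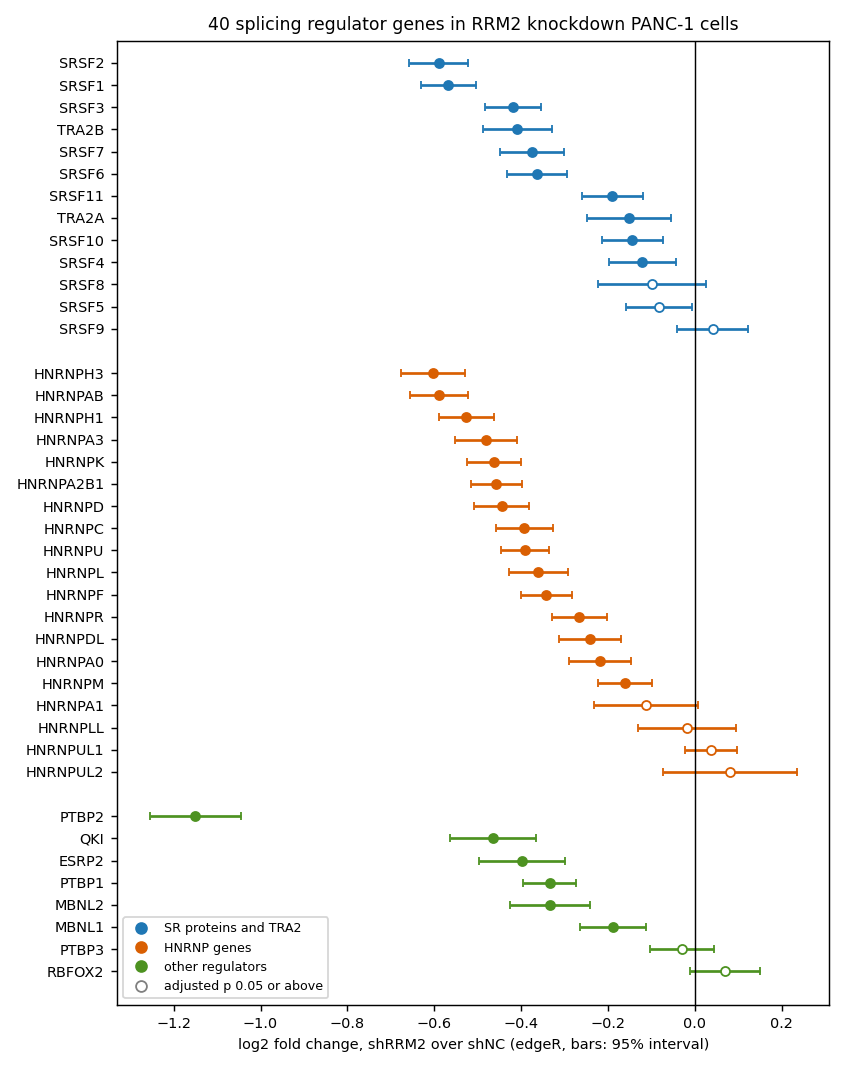
Log2 fold change (x axis, shRRM2 over shNC) of the 40 tested members by class, with bars for the 95% interval; open points had an adjusted p of 0.05 or above. All 31 filled points lie left of 0, and PTBP2 stands farthest out at −1.15.

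Most members are abundant genes, which tend to pass a test more often. Among all tested genes at a mean of at least 100 CPM, a level chosen after the values were seen, 43.2% of 2487 were lower and 31.7% higher, with a median log2 fold change of −0.05. Of the 33 members above that level, 27 were lower and 0 higher, with a median of −0.34. Across the 40 tested members the log2 fold change and the mean CPM in shNC had a Spearman rho of −0.37, given as a description, since these points share the same 6 libraries. With exon length the rho was 0.10.

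The libraries of a group differed in how often they were highest or lowest for these genes. In the knockdown, replicate 2 had the highest CPM of its group for 22 of 40 tested members and for 15 of 19 HNRNP genes, HNRNPA2B1 and HNRNPA1 among them. How often each library was highest or lowest over all tested genes was not computed. Over genes in general, shRRM2 replicate 2 also differed most within its group. The chi-square per degree of freedom was 3.41 against replicate 1 and 3.69 against replicate 3, and 2.20 between replicates 1 and 3. In the controls, replicate 2 had the lowest CPM of its group for 21 of 40 members and the highest for 4, and replicate 1 the highest for 13 of 19 HNRNP genes. Without shRRM2 replicate 2, 33 of 40 members were lower and 0 higher, and SRSF5 and HNRNPA1 joined those that passed. Without shNC replicate 2, 32 were lower and HNRNPA1 joined them.

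The SR proteins fell by different amounts. Of 13 tested, 10 fell (76.9%) and 0 rose, with a median of −0.19, beside 26.1% lower and 26.0% higher of all tested genes. SRSF2, which binds enhancers in many constitutive exons (Gene ID 6427, chromosome 17, 76734115 to 76737411, GRCh38), stood at 302, 306 and 309 CPM in the control libraries and at 200.4, 209 and 199.8 CPM after knockdown. The groups were far apart, and SRSF2 was 33.6% lower (log2 fold change −0.59, SE 0.0332, adjusted p = 2.51e-16). SRSF1, the founding member of the family and a known oncoprotein (Gene ID 6426, chromosome 17, 57989038 to 58007246), stood at 496, 477 and 497 CPM in the controls and 338, 324 and 331 CPM after knockdown. Every knockdown library lay below every control library (log2 fold change −0.57, SE 0.0311, adjusted p = 1.22e-16).

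The short SR proteins SRSF3 and SRSF7 also take part in mRNA export. SRSF3 fell by 0.42 on the log2 scale, from 400.4, 386 and 402 CPM to 298, 302 and 290.1 CPM. SRSF7 fell by 0.38, from 229, 219 and 232 CPM to 178, 177 and 169 CPM. For both genes the groups were well separated and the libraries of a group lay close together.

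SRSF4, SRSF5 and SRSF6 are built alike, with 2 RNA recognition motifs and an arginine-serine tail, but moved by different amounts. SRSF6 fell by 0.36, from 231, 229.6 and 224 CPM to 175, 177 and 181 CPM. SRSF4 fell by 0.12, from 143, 145 and 145 CPM to 135, 131 and 131 CPM, and no longer passed when libraries were scaled by their size alone (−0.08, adjusted p = 0.0617). SRSF5, at 175, 171 and 171 CPM in the controls and 163, 169 and 156 CPM in the knockdown, did not pass, though its libraries did not overlap. Its log2 fold change was −0.08 (SE 0.0374, edgeR adjusted p = 0.0627). It passed without shRRM2 replicate 2 (−0.11, adjusted p = 0.022).

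The TRA2 pair activates exons through purine-rich enhancers. TRA2B fell by 0.41, from 238, 242 and 244 CPM to 173, 196 and 176 CPM, with replicate 2 above the other knockdown libraries. TRA2A fell by 0.15, from 90.7, 86.6 and 94.5 CPM to 79.3, 84.9 and 79.9 CPM, and its lowest control library was close to its highest knockdown library. SRSF11 and SRSF10, of which the latter represses splicing when it loses phosphate groups, fell by 0.19 and 0.14.

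SRSF8 and SRSF9 are relatives of SRSF2 and SRSF1, the members with the largest falls of the family, and neither passed. SRSF8 was at 44.6 ± 2.15 and 41.7 ± 0.339 CPM (SD, n = 3 each, control before knockdown, as in later pairs of means), with an interval from −0.22 to 0.03. SRSF9 was at 148, 151 and 136 CPM in the controls and 145, 153 and 150.5 CPM in the knockdown, with an interval from −0.04 to 0.12. Its groups overlapped almost fully. SRSF12 had 0 to 1 counts per library and was not tested.

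**Figure D2:**
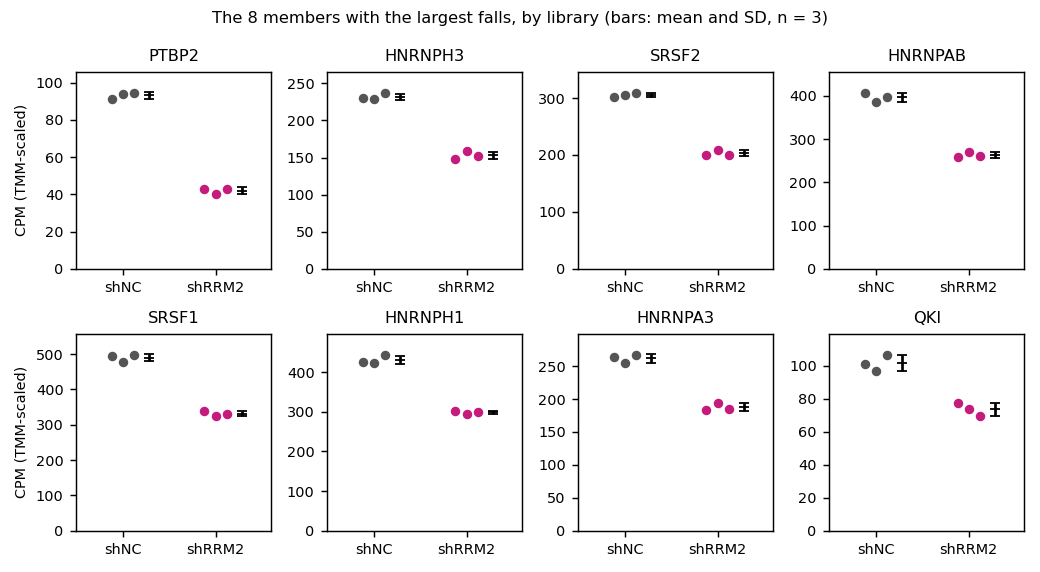
CPM on TMM-scaled library sizes (y axis, from 0) in each library of shNC and shRRM2 for the 8 members with the largest falls; bars show the mean and SD of 3 libraries. In all 8 panels the 3 knockdown points lie below the 3 control points, and PTBP2 fell to 45.1% of its control level.

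Of 19 tested HNRNP genes, 15 fell and 0 rose, with a median of −0.36. The share that fell was 78.9%, close to the 76.9% of the SR genes and the 75.0% of the remaining regulators. Among all tested genes 26.1% were lower and 26.0% higher, and among those at a mean of at least 100 CPM 43.2% and 31.7%. HNRNPH3, a member of the group that binds runs of guanines (Gene ID 3189, chromosome 10, 68331693 to 68343196), was counted at 230.0, 229 and 237 CPM in the controls and 148, 158 and 152 CPM after knockdown. This was the largest fall among the HNRNP genes (log2 fold change −0.60, SE 0.0361, adjusted p = 1.30e-15). Its larger relative HNRNPH1 (Gene ID 3187, chromosome 5, 179614178 to 179634784) was at 425, 424 and 443 CPM against 302, 295 and 301 CPM (log2 fold change −0.53, SE 0.0314). HNRNPF, of the same group, fell by 0.34, from 540.4, 530.4 and 532 CPM to 422, 424 and 419 CPM. All knockdown libraries of these 3 genes lay below all controls. HNRNPH1 lies within the annotated gene LOC128966623, which had 0 counts.

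HNRNPAB, an RNA-binding protein of nucleus and cytoplasm (Gene ID 3182, chromosome 5, 178204533 to 178211163), had 407, 386 and 398 CPM in the controls and 259, 271 and 261 CPM after knockdown. The groups did not overlap (log2 fold change −0.59, SE 0.0325, adjusted p = 1.48e-16). HNRNPA3, a relative of HNRNPA1 (Gene ID 220988, chromosome 2, 177212794 to 177223959), went from 265, 254 and 267 CPM to 184, 194 and 184 CPM (log2 fold change −0.48, SE 0.0352). HNRNPD, also called AUF1 for its binding to AU-rich elements, fell by 0.44, from 410.4, 402 and 396 CPM to 292, 303 and 292 CPM. Its neighbour on chromosome 4, HNRNPDL, fell by 0.24, from 223, 215 and 223 CPM to 183, 192 and 184 CPM, and in both genes no knockdown library reached a control.

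By CPM per kilobase of exon, a level corrected for length, HNRNPK came first in shNC at 276, then HNRNPA2B1 at 254, HNRNPAB at 212 and HNRNPM at 183, all of which fell. This order counts HNRNPA1 by its own reads alone, while HNRNPA1 and its copies, described below, held 1577 CPM together, so its place in the order is uncertain. HNRNPK, which binds runs of cytosines in RNA and DNA, went from 874, 824 and 821 CPM to 619.5, 622 and 588 CPM (log2 fold change −0.46, SE 0.0306). HNRNPA2B1, a core hnRNP particle protein, went from 1531, 1477 and 1522 CPM to 1066, 1153 and 1080.3 CPM (−0.46, SE 0.0290). These knockdown libraries lay well below the controls for both genes. HNRNPM, a regulator of splicing in epithelial-mesenchymal transition, was at 503, 498 and 475 CPM against 436, 444 and 441 CPM, a smaller fall of 0.16 (SE 0.0305).

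HNRNPC, which binds uridine tracts and shields cryptic exons, fell by 0.39, from 462, 454 and 457 CPM to 337, 363 and 346 CPM. HNRNPU, the scaffold attachment factor that also binds chromatin-associated RNA, fell by 0.39, from 1004, 973 and 982 CPM to 748, 753 and 756 CPM. HNRNPL, which binds CA repeats, fell by 0.36, from 306, 298 and 299.8 CPM to 239, 229 and 236 CPM. The groups were separate in all of these, and least spread for HNRNPU after knockdown. HNRNPR fell by 0.27, from 374, 371 and 371 CPM to 305, 319 and 306 CPM. HNRNPA0, whose gene has no introns, fell by 0.22, from 414, 407 and 399.8 CPM to 331, 372 and 347 CPM.

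4 tested HNRNP genes did not pass: HNRNPA1, described next, HNRNPLL, HNRNPUL1 and HNRNPUL2. HNRNPLL, the paralogue of HNRNPL known from lymphocytes, was at 70.1, 63.5 and 70.6 CPM in the controls and 69.1, 69.8 and 62.1 CPM in the knockdown. The libraries overlapped, with an interval of the log2 fold change from −0.13 to 0.09. HNRNPUL1, a relative of HNRNPU, was at 486, 478 and 476 CPM in the controls and 499, 493 and 485 CPM in the knockdown, with an interval from −0.02 to 0.10. When libraries were scaled by size alone, HNRNPUL1 passed upward (0.07, adjusted p = 0.0232).

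HNRNPA1, the best-known shuttling hnRNP protein (Gene ID 3178, chromosome 12, 54280726 to 54287087), shares its sequence with copies that the table counts apart. The copies arose by reverse transcription of the spliced transcript, and a short read from one can fit another. Over the 924 coding bases of an HNRNPA1 transcript of GENCODE release 29, the pseudogene HNRNPA1P10 differed at 4 of 923 aligned bases (99.6% identity), with a longest identical run of 301 bases. HNRNPA1L3 differed at 7 bases (99.2%, longest run 261) and HNRNPA1L2 at 15 (98.4%, longest run 174). A stretch of 30 bases around a difference shows how little separates them. It is printed 5′ to 3′, with the position that varies in capitals, for HNRNPA1 at chr12:54281830-54281859 (plus strand), HNRNPA1P10 at chr19:11666834-11666863 (minus strand), HNRNPA1L3 at chr16:51645985-51646014 (plus strand) and HNRNPA1L2 at chr13:52642660-52642689 (plus strand), all in GRCh38.
HNRNPA1: ctttgggtttgtcacAtatgccactgtgga
HNRNPA1P10: ctttgggtttgtcacGtatgccactgtgga
HNRNPA1L3: ctttgggtttgtcacAtatgccactgtgga
HNRNPA1L2: ctttgggtttgtcacAtatgccactgtgga

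The copies held more counts than the gene itself. HNRNPA1 had 430.0, 407 and 448 CPM in the controls and 377, 431 and 379 CPM after knockdown, so the groups overlapped. HNRNPA1 with HNRNPA1L2, HNRNPA1L3, HNRNPA1P10 and HNRNPA1P33 summed to 1604, 1536 and 1589.8 CPM in shNC and 1396, 1505 and 1399 CPM in shRRM2. HNRNPA1 itself took 26.5% to 28.2% of the summed counts in shNC and 27.0% to 28.6% in shRRM2, a near constant part. The reads cannot be assigned to a locus from these counts, and the handling of reads that map to several places is not given in the sources used here.

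HNRNPA1 alone did not pass (log2 fold change −0.11, SE 0.0534, edgeR adjusted p = 0.103). HNRNPA1P10 was lower by −0.15 (SE 0.0284, adjusted p = 4.06e-05) and HNRNPA1L3 by −0.15 (SE 0.0329). The other copies did not pass: HNRNPA1L2 had a log2 fold change of −0.04 (edgeR adjusted p = 0.880), with shRRM2 replicate 2 at 59.3 CPM above every control, and HNRNPA1P33, with 11 to 32 counts per library, one of −0.34 (edgeR adjusted p = 0.461). With the 4 copies added to HNRNPA1 before the fit, an alternative chosen after the data were seen, the summed family was lower at −0.14 (adjusted p = 0.000157). HNRNPA1 also passed with DESeq2 (−0.11, adjusted p = 0.0453), with limma-voom (−0.11, adjusted p = 0.0314), with no filter on low counts (−0.11, adjusted p = 0.00232), without shNC replicate 2 (−0.15, adjusted p = 0.0251) and without shRRM2 replicate 2 (−0.17, adjusted p = 2.3e-05). In each of these fits the fall was smaller than that of HNRNPA2B1, given above.

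**Figure D3:**
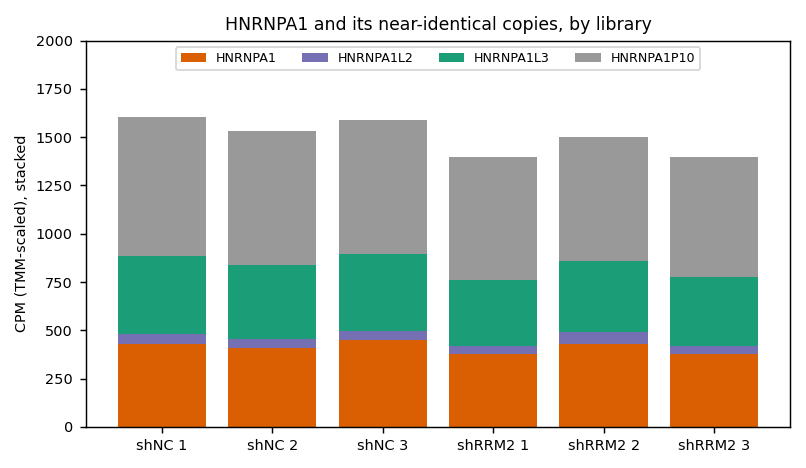
CPM (y axis, TMM-scaled, stacked) of HNRNPA1 and its copies HNRNPA1L2, HNRNPA1L3 and HNRNPA1P10 in each library. HNRNPA1P10 is the tallest part in every library and HNRNPA1 itself holds between 26.5% and 28.6% of the family's counts, HNRNPA1P33 included.

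HNRNPH2 and HNRNPUL2 lie under annotated readthrough genes, which join them to a neighbour. HNRNPH2, on chromosome X, had 3 to 11 counts per library and was not tested. It lies inside the readthrough gene RPL36A-HNRNPH2, which had 0 to 2 counts, and RPL36A, a ribosomal protein gene, had 7 to 26. HNRNPUL2 was at 27.2 ± 1.57 and 28.8 ± 0.884 CPM, with overlapping libraries and an interval of the log2 fold change from −0.07 to 0.24. It lies inside HNRNPUL2-BSCL2, which had 2 to 10 counts, with BSCL2 at 5 to 16. Whether reads of overlapping genes were dropped in counting was not tested. HNRNPCL1, HNRNPCL2 and HNRNPCL4, copies of HNRNPC on chromosome 1, had 1 to 9, 0 to 4 and 1 to 5 counts per library and were not tested.

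Among the tissue-regulated and other factors, 6 of 8 tested fell (75.0%) and 0 rose, with a median of −0.33. The shares of all tested genes were 26.1% lower and 26.0% higher. PTBP2, the polypyrimidine tract binding protein of developing neurons (Gene ID 58155, chromosome 1, 96721784 to 96823739), had the largest fall of all members. It stood at 91.3, 93.7 and 94.5 CPM in the controls and at 42.9, 40.1 and 43.1 CPM after knockdown, with a wide gap between the groups. The level was 54.9% lower (log2 fold change −1.15, SE 0.0520, 95% interval −1.26 to −1.04, adjusted p = 7.55e-19). PTBP1, its widely expressed paralogue and a known repressor of a PTBP2 exon whose skipping sends that transcript to decay, went from 549.9, 549 and 531 CPM to 440.0, 431 and 423 CPM (−0.33, SE 0.0299). PTBP3, the third paralogue, was at 186, 185 and 193 CPM in the controls and 191, 181 and 180.3 CPM in the knockdown. Its libraries overlapped, with an interval of the log2 fold change from −0.10 to 0.04.

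QKI, which binds intronic sites and also promotes circular RNA formation (Gene ID 9444, chromosome 6, 163414718 to 163578592), went from 101, 96.9 and 106 CPM to 77.2, 73.9 and 69.4 CPM (log2 fold change −0.46, SE 0.0491, adjusted p = 9.51e-10). The epithelial regulator ESRP2 fell by 0.40, from 86.3 ± 1.48 to 65.5 ± 2.53 CPM (SD, n = 3 each). Its paralogue ESRP1 was counted at 0 in every library, which allows up to 0.129 to 0.181 CPM by counting error. The muscleblind proteins drive splicing patterns of differentiated cells. MBNL2 fell by 0.33, from 117, 116 and 121 CPM to 99.8, 88.1 and 93.2 CPM, and MBNL1 fell by 0.19, from 175, 167 and 179 CPM to 156, 149.8 and 151 CPM. Both had every knockdown library below every control. MBNL1-AS1, an antisense gene that overlaps MBNL1, rose by 0.68 (adjusted p = 7.67e-07), and without the strand setting of the counting their reads cannot be told apart where they overlap.

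RBFOX2, which activates or represses exons by the position of its binding site, was at 119.8, 121 and 119 CPM in the controls and 124, 124 and 129 CPM in the knockdown. The knockdown libraries lay above the controls, but the difference did not pass (log2 fold change 0.07, 95% interval −0.01 to 0.15). With library size alone it passed upward (0.11, adjusted p = 0.0226). SRSF2 overlaps the gene MFSD11 by 778 bases. MFSD11 was at 17.3 to 31.3 CPM over the 6 libraries and rose by 0.67 (SE 0.0845) while SRSF2 fell. Here too, without the strand setting of the counting, reads of both genes cannot be told apart where they overlap.

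Related genes did not fall by equal amounts. The log2 ratio of 2 related members was taken within each library for 16 pairs, so that depth and scaling cancel. For 15 of the 16 the 3 knockdown libraries did not overlap the 3 control libraries. How often this holds for other pairs of genes was not computed. Of all single tested genes, 57.8% did not overlap, so the separation alone does not set these pairs apart. The smallest p that an exact two-sided permutation test of 3 against 3 libraries can give is 0.1, which those 15 pairs reached (0.107 adjusted over the 16), so none could pass 0.05.

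The log2 ratio of SRSF1 to SRSF9 went from 1.76 ± 0.105 in shNC to 1.15 ± 0.0707 in shRRM2 (SD, n = 3 each), a difference of −0.61. The ratio of PTBP1 to PTBP2 moved up from 2.54 ± 0.0498 to 3.36 ± 0.0649, a difference of 0.82, and that of PTBP1 to PTBP3 moved down by −0.30. The difference was −0.43 for HNRNPU against HNRNPUL1 and −0.34 for HNRNPL against HNRNPLL. It was 0.34 for HNRNPA1 against HNRNPA2B1, 0.28 and 0.24 for SRSF5 and SRSF4 against SRSF6, and 0.26 for TRA2A against TRA2B. Smaller differences were seen for HNRNPD against HNRNPDL (−0.20), HNRNPF against HNRNPH1 (0.18), MBNL1 against MBNL2 (0.15) and HNRNPR against HNRNPU (0.13).

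SRSF3 and SRSF7 moved almost together, with a difference of −0.04. The libraries overlapped for HNRNPUL1 against HNRNPUL2 (−0.05, exact permutation p = 0.4). The ratio of HNRNPH1 to HNRNPH2 differed by −1.47, but it rests on the few counts of HNRNPH2 given above.

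**Figure D4:**
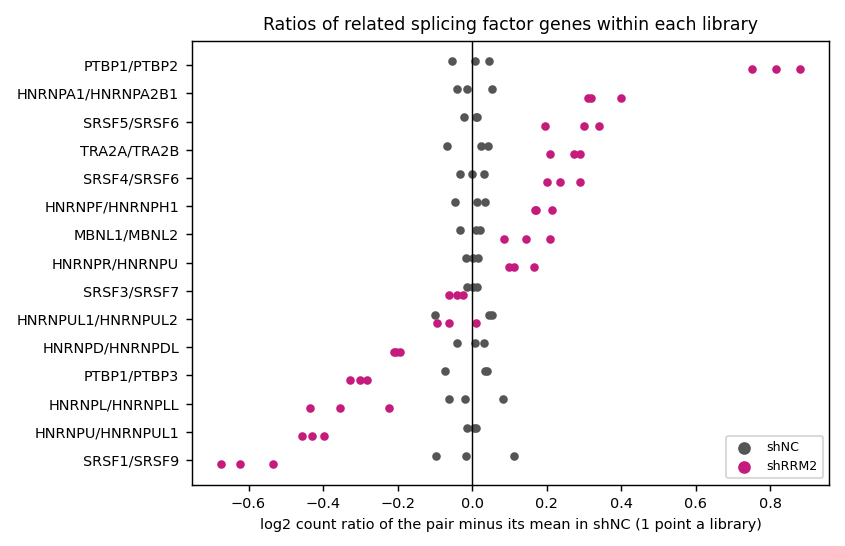
Log2 count ratio of 15 pairs of related members minus its mean in shNC (x axis), with 1 point a library, grey for shNC and magenta for shRRM2. HNRNPH1 against HNRNPH2 is left out for its few counts. The magenta points lie farthest right for PTBP1 against PTBP2 (difference 0.82) and farthest left for SRSF1 against SRSF9 (−0.61).

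The rest of the splicing machinery fell less evenly. Of 157 other genes in 8 lists, 150 were tested, and 15 were higher (10%) and 85 lower (56.7%), with a median of −0.15. Of all tested genes 26.0% were higher and 26.1% lower. Among those at a mean of at least 100 CPM the shares were 31.7% and 43.2%. Of 15 tested Sm proteins and U1 factors, 11 fell (73.3%) and 0 rose, with a median of −0.21. Also at an unadjusted edgeR p under 0.05, and with DESeq2 and limma-voom, 0 were higher. SNRPD1 and SNRPB, which encode parts of the ring of Sm proteins around spliceosomal RNAs, fell by 0.43 and 0.32. Of 19 genes of the U2 particle and the 3′ splice site, 10 fell (52.6%) and 3 rose (15.8%). U2SURP, SF1, the branch point binding protein, and SF3B3 fell by 0.46, 0.40 and 0.39, while DDX42, SF3B2 and SNRPA1 rose by 0.25, 0.24 and 0.21. SNRPA1 did not pass without shRRM2 replicate 2 (0.15, adjusted p = 0.0827).

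Of 16 tri-snRNP genes, 6 fell (37.5%) and 4 rose (25.0%), with a median of 0.04. The share that rose was near the 26.0% of all tested genes. The share that fell lay between their 26.1% and the 43.2% of genes at a mean of at least 100 CPM. TXNL4A, SNRNP40 and USP39 fell by 0.43, 0.41 and 0.31, while PRPF3, SART1 and PRPF4 rose by 0.21, 0.17 and 0.15. Of 22 genes of the catalytic complex and splicing helicases, 9 fell (40.9%) and 1 rose (4.55%), beside 26.1% and 26.0% of all tested genes. DHX15, the helicase that takes spent spliceosomes apart, fell by 0.56, CWC27 by 0.46 and CWC22 by 0.32, and CDC5L rose by 0.11. CDC5L did not pass with DESeq2 (0.12, adjusted p = 0.0539) or without shNC replicate 1 (0.10, 0.114), shNC replicate 2 (0.09, 0.141), shRRM2 replicate 1 (0.11, 0.0866) or shRRM2 replicate 3 (0.12, 0.0585).

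Proteins that resemble SR proteins or sit at exon junctions mostly fell, 15 of 21 (71.4%) against 2 that rose (9.52%). Of all tested genes 26.1% were lower and 26.0% higher. MAGOHB, a paralogue of the exon junction protein MAGOH, fell by 0.53, RSRC1 fell by 0.51 and SCAF8 by 0.32, while SCAF1 and CASC3 rose by 0.30 and 0.11. CASC3 did not pass with DESeq2 (0.11, adjusted p = 0.0635) or without shNC replicate 2 (0.06, 0.31), shRRM2 replicate 1 (0.10, 0.0864) or shRRM2 replicate 3 (0.11, 0.0587). Of 31 other hnRNP-like and regulatory proteins, 20 fell (64.5%) and 3 rose (9.68%). CIRBP, the cold-inducible RNA-binding protein, fell by 0.62, SYNCRIP, also known as hnRNP Q, by 0.59 and RBMX, also known as hnRNP G, by 0.43. RBM5, RALY and TIA1 rose by 0.31, 0.14 and 0.13. TIA1 did not pass without shNC replicate 1 (0.08, adjusted p = 0.18) or shRRM2 replicate 3 (0.12, 0.0612).

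Kinases, phosphatases and importers of SR proteins went both ways. Of 14 tested, 6 fell (42.9%) and 2 rose (14.3%), beside 26.1% and 26.0% of all tested genes, with a median of −0.14. SR proteins work in cycles of phosphorylation, in which SRPK kinases load their arginine-serine domains in the cytoplasm and CLK kinases complete it in the nucleus. CLK4 rose from 12.8 to 17.3 CPM in the group means, by 0.44 (SE 0.108), and CLK1 by 0.20 (SE 0.0680). CLK1 did not pass without shNC replicate 3 (0.18, adjusted p = 0.0522) or shRRM2 replicate 1 (0.18, 0.0535). PPP1CB, a catalytic subunit of protein phosphatase 1, CLK2 and the importer TNPO1 fell by 0.38, 0.33 and 0.28. Of 12 nonsense-mediated decay factors, 8 fell (66.7%) and 0 rose (0 also at an unadjusted edgeR p under 0.05 and with DESeq2 and limma-voom). NBAS, UPF3A and SMG5 fell by 0.69, 0.47 and 0.35.

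**Figure D5:**
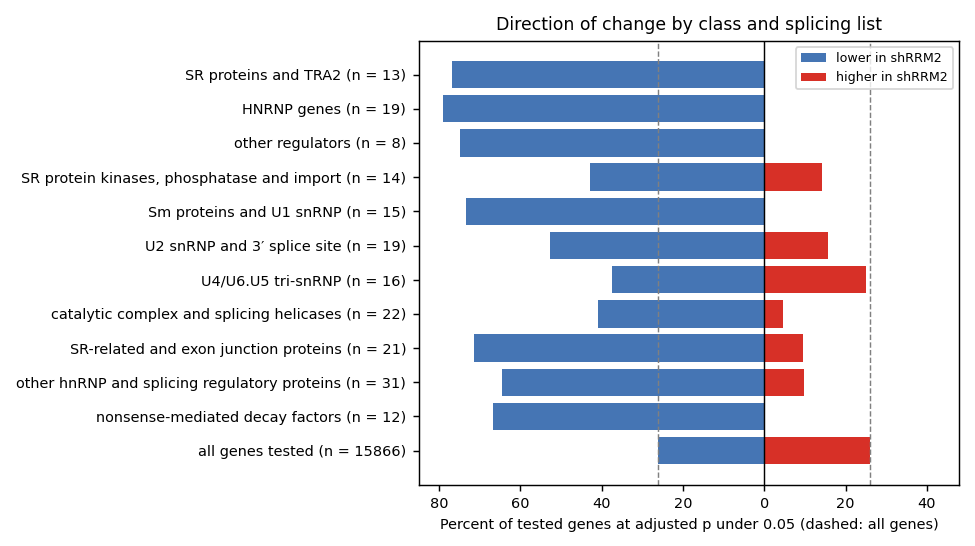
Percent of tested genes (x axis) that were lower (blue, left) or higher (red, right) at an adjusted p under 0.05, for the 3 classes of members, the 8 lists of other splicing genes and all 15866 tested genes; dashed lines repeat the values of all genes, 26.1% lower and 26.0% higher. The 3 member classes, the Sm and U1 list and the decay factors have no red bar.

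MYC, a regulator of several members, stood at 258 to 471 CPM over the 6 libraries and was lower by −0.80 (SE 0.0323, adjusted p = 3.55e-20). Its part in these falls was not tested. The E-box letters CACGTG, which MYC with MAX can bind and which read the same on both strands, were looked for in RefSeq promoters of GRCh38.p14, from 250 bases before to 50 after each annotated start. A promoter was at hand for 39 of the 46 members, tested or not. The letters were in 8 of these genes (20.5%), against 12.4% of 11701 tested genes. HNRNPH2, which was not tested, is among the 8. The letters CCAAT, on either strand, were in 23 of 39 (59.0%) against 42.1% of tested genes. Some genes have several windows. Counted by window, 9 of 57 member windows held the E-box and 26 held CCAAT. Over all 35116 windows, of tested and untested genes, the shares were 7.26% and 34.6%. Of the other letters searched on both strands, CCGGAAG, an ETS core, was in 6 member genes (15.4%, against 21.3% of tested genes), TATAAA in 6 (15.4%, against 8.39%) and the NRF1 core in 0 (against 2.65%). Windows of 30 bases around the E-box, in capitals, are shown for 3 members that fell and for HNRNPUL1, which did not pass. They are HNRNPH3 at chr10:68331631-68331660 (plus strand), HNRNPD at chr4:82374001-82374030 (minus strand), HNRNPA3 at chr2:177212711-177212740 (plus strand) and HNRNPUL1 at chr19:41262568-41262597 (plus strand).
HNRNPH3: tgccggtcgaacCACGTGgggccctttccg
HNRNPD: gcgctctcgcgtCACGTGaccgggacgcgc
HNRNPA3: cggaaaacgcgtCACGTGacgactggcccc
HNRNPUL1: aacctctgggccCACGTGagtgtctgtccc

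The other members with the letters were HNRNPDL, HNRNPH2, HNRNPM and MBNL1. PTBP2, SRSF1 and HNRNPAB, among those with the largest falls, did not hold them in these windows, and SRSF2 and QKI had no window at hand. A match is a description of these letters and no measure of binding.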

How the data were processed

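Per the labels' protocols, polyadenylated RNA was sequenced from directional libraries. The authors deposited whole-number read counts per NCBI Gene ID. Per the submitters' processing notes, fastp 0.23.4, featureCounts and the hg38 build were used. Neither the aligner and annotation release nor the strand setting and use of multi-mapping reads was stated (not given in the sources used here). Of 42902 IDs, 40120 matched a symbol in RefSeq GRCh38.p14 by ID. Unmatched IDs (1.25% of counts) stayed in the fit. The columns carry "si" where the titles have "sh" and were matched by gene name and number.

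Genes were filtered with filterByExpr (15866 kept), scaled by TMM and tested by the robust quasi-likelihood F test of edgeR 4.0.16 (R 4.3.3, group as the only term, two-sided), with Benjamini-Hochberg adjustment over all tested genes and a threshold of 0.05. The SE is the log2 fold change over the square root of F, and 95% intervals use the t distribution. Exon lengths were the union of protein-coding exons in GENCODE release 29. The procedure was run on simulated counts in which far fewer genes changed than were called here, in both directions at random. It therefore does not check scaling or error control for changes as wide as these. Libraries of a group differed by more than sampling noise (chi-square per degree of freedom 2.20 to 3.69). Every member may be named. Values per library were given for up to 8 members with the largest changes in each direction, the 4 highest per kilobase and members of the related pairs, and up to 3 genes in each direction are named per list. 1 gene that this rule names is not reported here. Members, lists, the pairs and the marker genes were chosen with earlier results of these data known. Alternatives were RLE, library size alone, no filter, 1 CPM in 3 libraries, DESeq2 1.42.0, limma-voom (limma 3.58.1), a replicate block and leaving out each library. The 95% intervals cover the spread between libraries, and the floor of 3 counts for a gene at 0 covers counting error only.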

Additional observations from a re-analysis of the deposited data

How the results depend on the processing

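Members lower numbered 30 to 33 over the alternatives tried (31 as reported), and members higher 0 except with library size alone, where 2 passed, 1 HNRNP gene (HNRNPUL1) and 1 other regulator (RBFOX2). That scaling moved the median of all genes from −0.00857 to 0.0292. It also gave 23 higher genes over the 8 lists, with 1 among the Sm and U1 genes, 2 in the catalytic list and 5 among the other regulatory proteins. The filter of 1 CPM in 3 libraries gave 2 in the catalytic list and 5 among the other regulatory proteins. DESeq2 gave 0 in the catalytic list and 1 among the SR-related genes. Without any 1 library, higher genes numbered 0 to 1 in the catalytic list, 1 to 2 among the SR-related genes and 1 to 2 among the kinases. The cause was not tested. With the replicate block 31 members were lower and 0 higher. Deviations of same-numbered libraries were uncorrelated (−0.007, −0.003 and −0.021). No shared effect of a number was seen, but this cannot tell whether same-numbered libraries were handled in pairs. Of the 6 libraries, 0 correlated best with their own number. The alternatives were not compared for the cell type markers. Among the other genes named, no called gene reversed its direction. Of the members SRSF4 alone lost its call, with library size alone, and of the other named genes CLK1, SNRPA1, CDC5L, CASC3 and TIA1 did in some settings, with values given above. Few or no counts per library left 6 members untested.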
